A study of Mus musculus with 6 samples.

Results

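The sites described here are the Grhl3 peaks of 5 megabases of the mouse genome in which peaks lie unusually close together. Positions are on build mm9. The windows are chr10:79-80 Mb and chr10:80-81 Mb, which adjoin, chr11:97-98 Mb, chr8:73-74 Mb and chr8:86-87 Mb, and a peak is a member when its centre lies in one of them. The windows were chosen by the density of peaks in the same lists that are described here, so their density is a description and was not tested. The windows hold 358 of the 34098 peaks in the 4 lists. Of these, 170 of 11619 come from E16.5 replicate 1, 102 of 9685 from E16.5 replicate 2, 42 of 4820 from depilation and 44 of 7974 from imiquimod. No filter on low values was applied, and every member is counted.

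Grhl3 was mapped by chromatin immunoprecipitation and sequencing (ChIP-seq) with a custom antibody. The E16.5 libraries are 2 replicates from the whole skin of mouse embryos at the embryonic stage E16.5. The other 2 libraries, 1 for each condition, come from adult epidermis separated with dispase, taken at day 4 of a depilation experiment (removal of hair) or in an imiquimod experiment. The labels give no strain, sex or adult age, and no genetic change or agent shared by all groups. They list 2 input libraries as well, which were not analysed here. Embryonic and adult libraries differ in tissue, age and treatment at once, and these cannot be told apart. Nothing in the labels tells if the embryonic replicates came from separate animals or if animals were pooled. Each list is 1 library, so sites are compared between lists and not between conditions, and no p-value is given. The read depth of the libraries is unknown. Intervals in brackets are exact 95% binomial intervals (Clopper-Pearson for shares, order statistics for medians). They hold the counting error alone and take peaks as independent of their neighbours.

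Grhl3 belongs to the grainyhead-like family of transcription factors, which bind DNA as dimers through a conserved immunoglobulin-fold domain. In the surface ectoderm and epidermis these factors act on genes of cell adhesion and of the cornified barrier. A ChIP-seq peak is a stretch in which fragments pulled down with the antibody pile up above the background that the peak caller expects. It is read as a place where the factor may have lain near DNA, and it names neither the regulated gene nor the cells that carried the signal. Whole embryonic skin contains dermis and vessels besides epidermis. Genes at these sites are not named, because the gene tables used here are on another build, and no sequence of the sites is printed for the same reason.

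Peak densities in the windows follow from how the windows were chosen, and are given as a description. The windows have the highest counts of E16.5 replicate 1 among autosomal megabases, and the list and threshold used to choose them are not stated. A high ratio in this list is therefore no result of its own. E16.5 replicate 1 had 34 peaks per Mb in the windows and 5.21 on the rest of chromosomes 8, 10 and 11, a ratio of 6.53. The rest was taken from the first to the last peak of each chromosome, 368.4 Mb in all. For E16.5 replicate 2 the densities were 20.4 and 4.35 (ratio 4.69). Following depilation they were 8.4 and 2.02 (ratio 4.16), and after imiquimod 8.8 and 3.39 (ratio 2.60). Of all peaks that a list has on these chromosomes, the windows hold 8.14% for E16.5 replicate 1, 5.99% for replicate 2, 5.35% for depilation and 3.41% for imiquimod.

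The 5 windows were not equally dense in all lists. In E16.5 replicate 1 they held 44 and 46 peaks on chromosome 10, 28 on chromosome 11 and 26 in each chromosome 8 window. These were the 5 highest counts among the 2391 autosomal megabases with a peak in any list. In E16.5 replicate 2 the counts were 30, 29, 13, 17 and 13 in the order chr10:79-80, chr10:80-81, chr11:97-98, chr8:73-74 and chr8:86-87 Mb. After depilation they were 8, 15, 12, 4 and 3, and after imiquimod 12, 10, 10, 3 and 9. The median autosomal megabase held 4 and 3 peaks in the embryonic lists, 2 after depilation and 3 after imiquimod. The chr8:73-74 Mb window, with 26 and 17 peaks in embryonic skin, ranked 215 after depilation and 969 after imiquimod, where its 3 peaks equal the median. The chr8:86-87 Mb window ranked 383 after depilation and 33 after imiquimod.

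**Figure D1:**
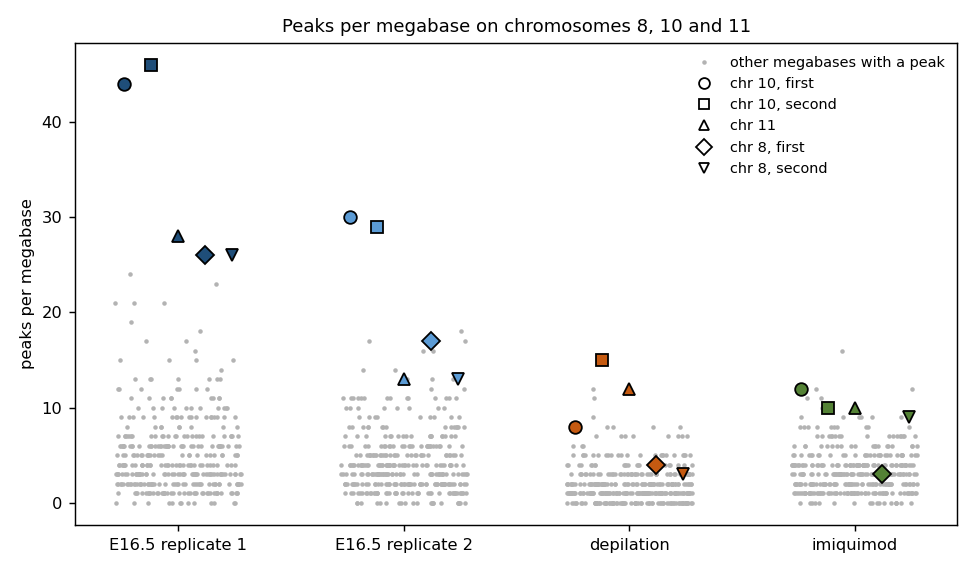
Peaks per megabase (vertical axis) in each list on chromosomes 8, 10 and 11. Coloured symbols are the 5 windows, where first and second are in order of position on a chromosome, and grey points, spread sideways at random, are the other megabases with a peak in any list; the chromosome 10 windows stand clear of the grey points in E16.5 replicate 1 (44 and 46 peaks), the other windows lie just above them (26 to 28, with 24 in the highest grey point), and chr 8, first, with 4 and 3 peaks, lies among them in the adult lists.

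The edges of the windows differed. Summed over the lists, the chromosome 10 windows held 94 and 100 peaks, and the megabases on either side of them held 6 (chr10:78-79 Mb) and 16 (chr10:81-82 Mb). On chromosome 11 the window held 63 peaks, with 20 before it and 47 after it. The first chromosome 8 window held 50, with 46 before and 34 after, and the second held 51, with 15 before and 40 after. Just outside the windows come, on these chromosomes, 3 megabases of chromosome 11, at 120-121, 102-103 and 115-116 Mb, with 61, 55 and 54 peaks. These totals, by which the 3 were picked after seeing the data, are above those of both chromosome 8 windows, but their E16.5 replicate 1 counts (24, 21 and 23) are below the 26 of each. They serve below as a second comparison.

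Within the windows, peaks that overlapped were merged across lists, which gave 217 sites: 59 and 62 on chromosome 10, 34 on chromosome 11, and 34 and 28 on chromosome 8. On chromosome 10 they filled the whole stretch, with at least 1 site in each step of 100 kb. The fullest step, from 800 to 900 kb in chr10:80-81 Mb, held 11 sites. The longest distance between neighbouring sites in each chromosome 10 window was 82.9 and 81.9 kb. The chromosome 8 windows were more uneven. In chr8:73-74 Mb no site lay between 73438694 and 73768754, and neighbouring centres there were 330.3 kb apart. The longest distances in the other 2 windows were 151.4 kb (chr11:97-98 Mb) and 157.6 kb (chr8:86-87 Mb).

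**Figure D2:**
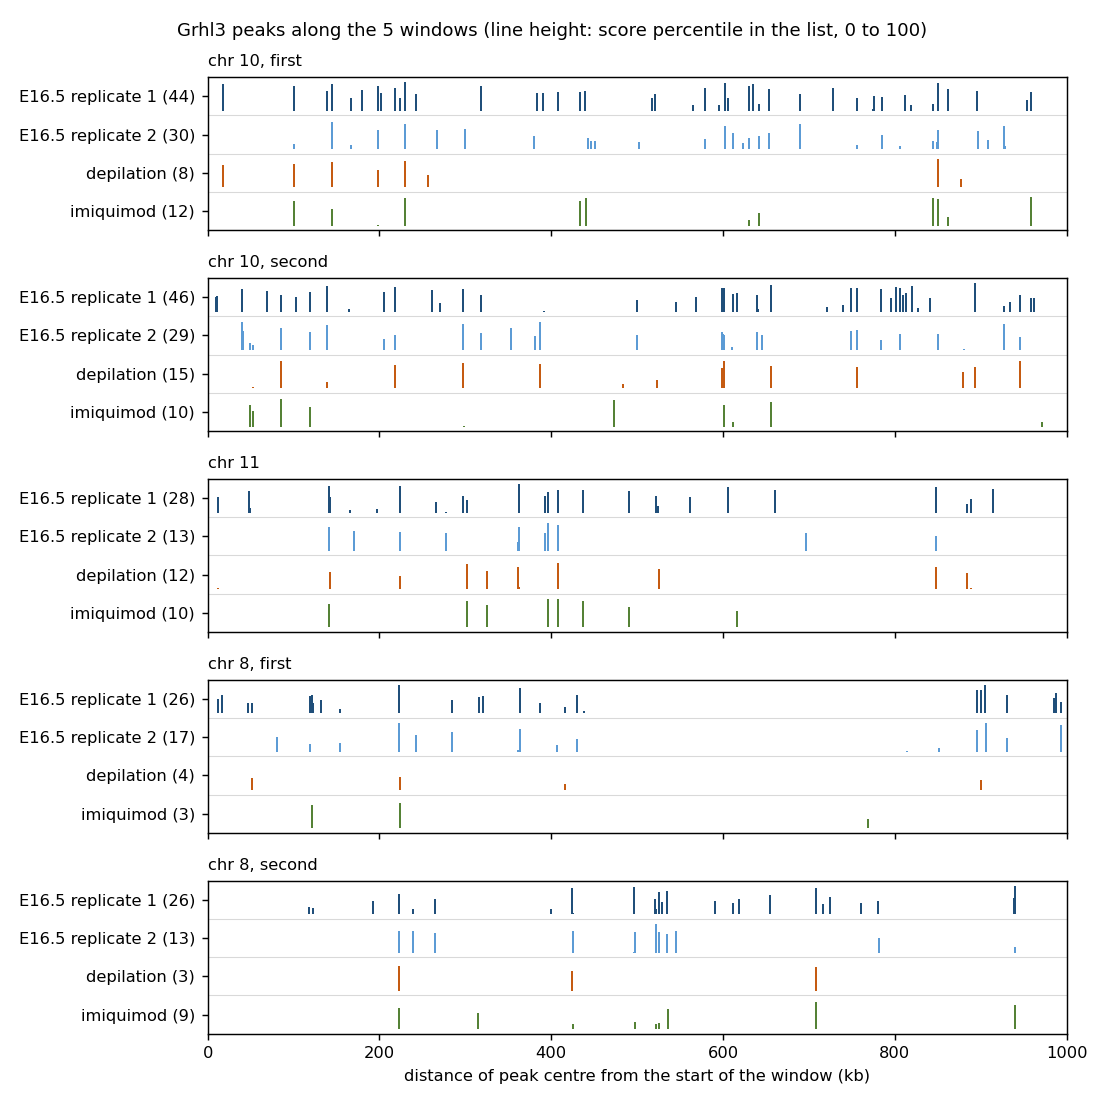
Position of each peak centre in kb from the start of its window (horizontal axis), 1 panel for each window and 1 row for each list with its number of peaks. The height of a line is the peak's score percentile within its list. Many adult lines stand below an embryonic line, and the 330.3 kb stretch without a site shows in chr 8, first.

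Sites in the windows were close to each other, as the choice of dense windows requires. The median distance from a site to the nearest other site was 6.35 kb (5.26 to 8.43), against 27.0 kb (25.7 to 28.4) on the rest of the 3 chromosomes. Within a list, the median distance to the nearest peak was 6.96 kb in E16.5 replicate 1 and 12.8 kb in E16.5 replicate 2, and on the rest 48.8 and 50.9 kb. It was 44.6 kb in the depilation list, against 131.4 kb, and 30.8 kb in the imiquimod list, against 89.5 kb. Of the 217 sites, 89 (41.0%) lay within 5 kb of another, against 638 of 4038 (15.8%) on the rest. The 89 sites formed 40 runs, most of them pairs. The longest runs had 4 sites. One, at chr8:86520499-86528604, spanned 8.11 kb and held 4 peaks of E16.5 replicate 1, 3 of replicate 2 and 2 of imiquimod, but 0 of depilation. The other, at chr10:79439451-79451545, spanned 12.1 kb with 1, 3, 0 and 1 peaks in the same order. The shortest run of 3 sites, at chr10:80598869-80600976, held 2, 3, 2 and 1 peaks.

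Most adult peaks in the windows lay on a peak of another list, more often than on the rest of the same chromosomes as a whole. A peak was taken as shared where a peak of another list covered 1 bp of it or more. Of the 44 imiquimod peaks, 38 were shared, or 86.4% (72.6 to 94.8). On the rest of chromosomes 8, 10 and 11 it was 381 of 1248, or 30.5% (28.0 to 33.2), and in the whole list 30.2%. Of the 42 depilation peaks, 36 were shared, or 85.7% (71.5 to 94.6), against 58.8% (55.2 to 62.4) on the rest and 55.6% in the whole list. This difference of 26.9 percentage points was 15.9 without E16.5 replicate 1 and 16.4 with lists of equal length. In the imiquimod and the depilation list, with all libraries and full lists, the intervals of the windows and of the rest do not overlap. The windows were chosen by the density of peaks in these same lists, so this is a description and not a test.

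For embryonic skin the picture was split. Of the 102 peaks of E16.5 replicate 2, 71 were shared, or 69.6% (59.7 to 78.3), against 42.8% (40.4 to 45.3) on the rest and 44.2% in the whole list. This difference of 26.8 percentage points was 13.2 without E16.5 replicate 1, 11 in the better scoring 50% of each list and 5.94 with lists of equal length. Of the 170 peaks of E16.5 replicate 1, 84 were shared, or 49.4% (41.7 to 57.2). This is near the 42.5% (40.3 to 44.8) on the rest and the 42.7% of the whole list, and the intervals overlap. Among the better scoring 50% of each list its order turned, with the windows 4.4 percentage points below the rest, and with each list cut to its best 4820 peaks they were lower as well.

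**Figure D3:**
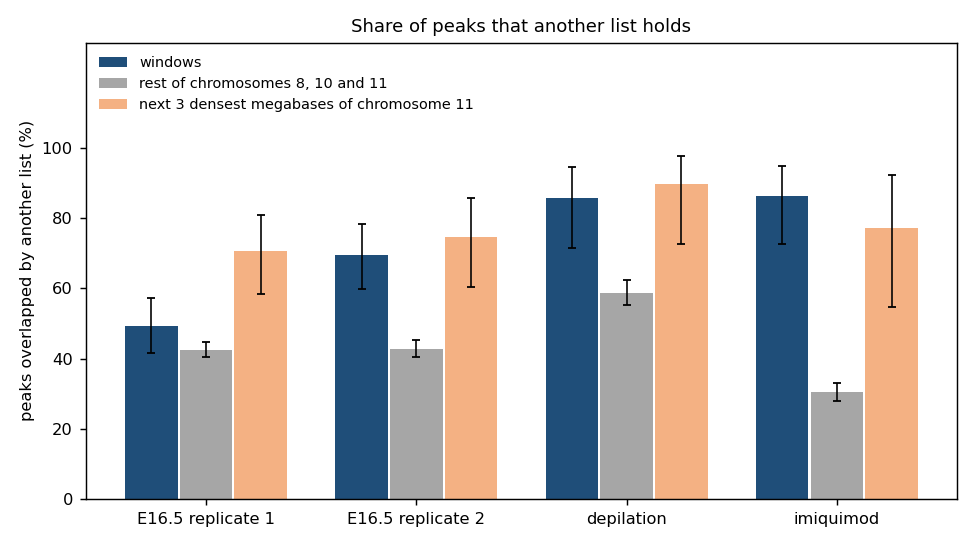
Percent of each list's peaks overlapped by a peak of any other list (vertical axis, from 0). Bars are the windows, the rest of chromosomes 8, 10 and 11 and the next 3 densest megabases of chromosome 11, and error bars are exact 95% binomial intervals. The windows reach 86.4% for imiquimod against 30.5% on the rest, and the next 3 densest megabases lie close to the windows in 3 lists and above them in E16.5 replicate 1.

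Seen by pairs of lists, the adult peaks of the windows lay mainly on embryonic ones. The windows are the autosomal megabases densest in E16.5 replicate 1 peaks. The part of this density in the shares of both adult lists was not tested. Of the imiquimod peaks, 33 of 44 (75%) lay on an E16.5 replicate 1 peak, against 28.3% on the rest and 27.9% in the whole list. On E16.5 replicate 2 lay 25 (56.8%), against 18.6% on the rest and in the whole list alike. On depilation peaks lay 14 (31.8%, 18.6 to 47.6), against 15.0% (13.0 to 17.1) and 14.9%.

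Depilation peaks showed the same order with smaller differences. On E16.5 replicate 1 lay 33 of 42 (78.6%, 63.2 to 89.7), against 54.9% (51.3 to 58.5) on the rest and 50.6% in the whole list. On E16.5 replicate 2 lay 22 (52.4%, 36.4 to 68.0), against 36.2% (32.7 to 39.8) and 34.1%, with intervals that overlap. On imiquimod peaks lay 14 (33.3%, 19.6 to 49.5), against 27.1% (23.9 to 30.4) and 26.2%, so this pair differed by less than its counting error.

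From the embryonic side, the adult lists covered similar parts of replicate 1 in the windows and elsewhere. Of its 170 peaks, 32 (18.8%) carried a depilation peak and 32 an imiquimod peak. The whole list gives 19.1% and 18.3%, and the rest 19.5% and 17.6%. Replicate 2 lay on 64 of them (37.6%, 30.3 to 45.4), against 32.0% on the rest and 32.5% in the whole list. Of the 102 replicate 2 peaks, 22 (21.6%, 14.0 to 30.8) carried a depilation peak, where the list gives 16.2%. An imiquimod peak was on 25 (24.5%), where the list gives 15.6% and the rest 15.0%. A replicate 1 peak lay on 66 (64.7%, 54.6 to 73.9), against 40.9% (38.5 to 43.4) on the rest and 41.7% in the whole list.

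A dense window offers more bases to overlap. Peaks of E16.5 replicate 1 covered 1.96% of the windows and 0.271% of the rest, those of replicate 2 covered 0.707% and 0.126%, those of depilation 0.215% and 0.0505%, and those of imiquimod 0.321% and 0.106%. The part of this coverage in the shares was not tested. Where peaks overlapped, their centres lay close together in the windows and elsewhere. The centre of an imiquimod peak lay a median of 81 bp (40.5 to 118) from that of its E16.5 replicate 1 peak in the windows and 79.5 bp (69.5 to 92.5) on the rest. For depilation peaks these distances were 69 bp (45.5 to 101) and 100.75 bp (89.5 to 118), and between the adult lists, seen from depilation, 37.5 bp (17 to 69.5) and 67 bp (53.5 to 76).

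The high shares of adult peaks also appeared in the megabases just outside the rule. In the 3 next densest megabases of chromosome 11, 17 of 22 imiquimod peaks (77.3%, 54.6 to 92.2) and 26 of 29 depilation peaks (89.7%, 72.6 to 97.8) were shared. The corresponding values were 74.5% (60.4 to 85.7) in E16.5 replicate 2 and 70.6% (58.3 to 81) in E16.5 replicate 1, the latter above the 49.4% of the windows with intervals that do not overlap. The shares of the adult lists and of E16.5 replicate 2 were therefore not particular to the 5 windows.

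The windows varied among themselves within the limits of their small numbers. All 12 imiquimod peaks of chr10:79-80 Mb were shared (interval 73.5 to 100), as were 7 of 10 in chr10:80-81 Mb, 9 of 10 in chr11:97-98 Mb, 2 of 3 in chr8:73-74 Mb and 8 of 9 in chr8:86-87 Mb. For depilation the numbers were 6 of 8, 12 of 15, 11 of 12, 4 of 4 and 3 of 3 in the same order. E16.5 replicate 2 ranged from 17 of 30 in chr10:79-80 Mb to 12 of 13 in chr8:86-87 Mb, and E16.5 replicate 1 from 21 of 46 in chr10:80-81 Mb to 16 of 28 in chr11:97-98 Mb. No window had an E16.5 replicate 1 share below the 42.5% of the rest.

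Median score ranks were higher in the windows than on the rest in each list, and the intervals are apart for imiquimod only. Scores of different lists are not on one scale, so each peak was ranked within its own list, from 0 for the lowest to 100 for the highest. The median percentile of imiquimod peaks was 74.2 (57.0 to 83.4) in the windows and 52.5 (50.2 to 55.1) on the rest. For depilation it was 69.9 (53.8 to 77.3) and 54.2 (50.2 to 57.6), with intervals that overlap, and the difference of 15.7 fell to 6.57 with windows widened by 0.5 Mb on both sides. For E16.5 replicate 1 it was 57.8 (52.7 to 64.0) against 50.9 (48.6 to 53.1), and for E16.5 replicate 2 58.0 (50.9 to 65.1) against 49.2 (46.7 to 51.5). These intervals also overlap, and among the better scoring 50% of each list both embryonic medians were below the rest. The next densest megabases had median percentiles of 70.9 (52.1 to 79.1) for E16.5 replicate 1 and 67.7 (53.4 to 72.8) for replicate 2. For depilation it was 62.6 (37.3 to 75.3), and for imiquimod 64.1 (44.5 to 78.3). The embryonic medians were above those of the windows, the adult ones were below, and each interval overlaps that of the windows. Medians above the rest were therefore not particular to the windows.

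The share of window peaks among the best of their list was close to that of the rest, except after imiquimod. In the top 10% of E16.5 replicate 1 were 17 of 170 window peaks (10%), against 9.90% on the rest. For E16.5 replicate 2 it was 10 of 102 (9.80%) against 9.68%, and for depilation 5 of 42 (11.9%) against 9.15%. After imiquimod it was 12 of 44, or 27.3% (15.0 to 42.8), against 10.3% (8.70 to 12.2). The bottom 10% held 4.71% (2.05 to 9.06) of the E16.5 replicate 1 window peaks, against 9.69% (8.41 to 11.1) on the rest.

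**Figure D4:**
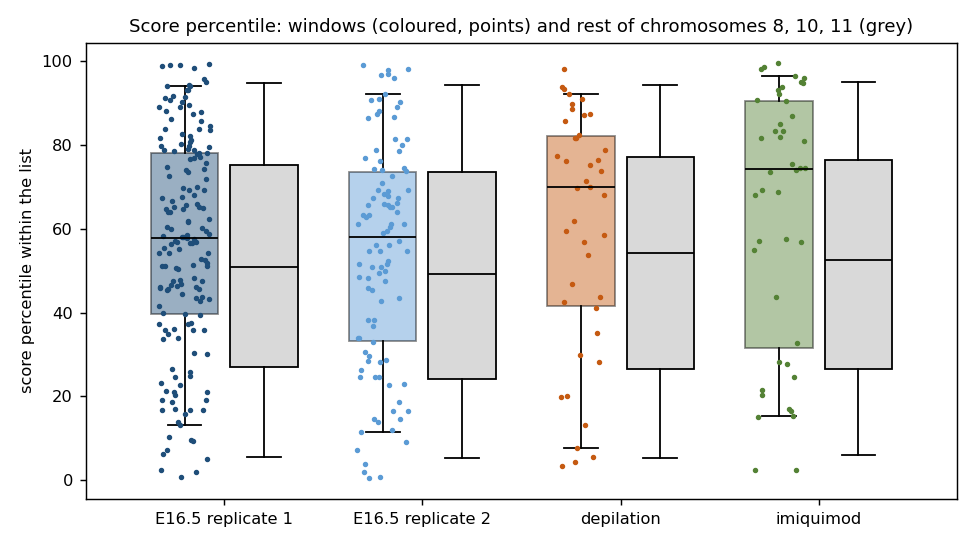
Score percentile within the list (vertical axis, 0 to 100) of window peaks (coloured boxes, each point a peak) and of the rest of chromosomes 8, 10 and 11 (grey boxes). Boxes span the quartiles with the median as a line and whiskers reach the 5th and 95th percentiles. The medians of the windows are the higher in each list, by most in the imiquimod list (74.2 against 52.5).

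The imiquimod list alone gives tags, fold enrichment and false discovery rate (FDR) for each peak. A window peak held a median of 45 tags (39 to 51), with 19 in the lowest and 96 in the highest, against 30 (30 to 32) on the rest. The fold enrichment was nearly the same, 6.79 (6.26 to 7.34) against 6.56 (6.48 to 6.65), and the intervals overlap. The FDR had a median of 4.56% (4.13 to 6.21) against 5.11% (4.80 to 5.24).

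Peaks were somewhat wider in the windows. Medians were 508 bp (489 to 532) against 465 bp (443 to 482) in E16.5 replicate 1, and 315.5 bp (294 to 347) against 231 bp (225 to 240) in replicate 2. After depilation they were 252.5 bp (215 to 301) against 206 bp (200 to 217), with intervals that overlap, and after imiquimod 365.5 bp (314 to 387) against 290 bp (283 to 298). Among the better scoring 50% of E16.5 replicate 1, window peaks were the narrower, by 70 bp. In the next densest megabases the median was 608 bp (535 to 657) for E16.5 replicate 1. For replicate 2 it was 353 bp (258 to 435), for depilation 252 bp (213 to 300) and for imiquimod 350 bp (283 to 389). The embryonic medians were above those of the windows and the adult ones below. Only for E16.5 replicate 1 are these intervals and those of the windows apart. Medians above the rest were therefore not particular to the windows.

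Because better scoring peaks are shared more often, the shares were also taken within 3 equal classes of score rank. The classes do not account for the peak density by which the windows were chosen, and its part in the shares was not tested. In the lowest class of the imiquimod list, 9 of 12 window peaks were shared (75%, 42.8 to 94.5), against 12.3% (9.24 to 16) of 389 on the rest. In the highest class, 26 of 27 were shared (96.3%, 81 to 99.9), against 53.2% (48.4 to 58.0). The middle class had 5 window peaks, of which 3 were shared. For E16.5 replicate 2 the shares in the windows were 50%, 68.3% and 85.7% from the lowest to the highest class, and 25.8%, 39.4% and 65.2% on the rest. In each class the intervals do not overlap, though in the lowest they are apart by little (29.9 to 70.1 against 22.2 to 29.7). For depilation they were 6 of 9, 8 of 10 and 22 of 23 in the windows, against 39.1%, 51.1% and 83.0%, and the intervals overlap in each class. For E16.5 replicate 1 the lowest class was shared in 9 of 31 window peaks (29.0%, 14.2 to 48.0), against 14.1% (11.4 to 17.1) on the rest, with intervals that overlap. Its middle and highest classes differed little, with 35.5% and 76.2% against 36.1% and 75.9%. The middle class held 44.7% of its window peaks, against 34.3% of those on the rest.

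Taken as sites, 88 of the 217 were held by 2 or more lists, or 40.6% (34.0 to 47.4). On the rest it was 846 of 4038, or 21.0% (19.7 to 22.2), and over all 24997 sites of the series 20.9%. Of the window sites, 129 were held by 1 list, 52 by 2, 26 by 3 and 10 by all 4. The 10 sites in all 4 lists are 4.61% (2.23 to 8.31), against 3.07% (2.56 to 3.65) on the rest and 3.0% over the series, which the interval includes.

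Sites of adult peaks alone were a smaller share of all sites in the windows than on the rest. Sites with an adult peak and no E16.5 peak were 13 of 217, or 5.99% (3.23 to 10), against 29.3% (27.9 to 30.7) on the rest and 31.1% over the series. The imiquimod list alone held 6 window sites (2.76%), against 21.5% on the rest, and the depilation list alone held 6, against 7.58%. E16.5 sites add to the total from which these shares are taken. By length, the depilation list alone held 6 sites in 5 Mb of windows and 306 in 368.4 Mb of the rest, which is not fewer per Mb. For the imiquimod list alone the counts were 6 and 867, which is fewer per Mb. Sites of E16.5 replicate 1 alone were the most frequent, 86 or 39.6%, against 27.3%, while those of replicate 2 alone were a smaller share than on the rest, 31 or 14.3%, against 22.7%. Both E16.5 replicates held 63 sites, 29.0% (23.1 to 35.6), against 15.1% (14.0 to 16.2). The windows stand out by their density of E16.5 peaks, and the part of this density in these shares was not tested.

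How often an embryonic site carried an adult peak was also counted. Of the 63 window sites of both E16.5 replicates, 32 carried an adult peak, or 50.8% (37.9 to 63.6), against 54.5% (50.5 to 58.5) on the rest. Of the 141 sites of 1 E16.5 replicate, 24 did, or 17.0% (11.2 to 24.3), against 10.1% (8.89 to 11.4), and these intervals just overlap. Given an adult site, 56 of 69 in the windows held an E16.5 peak, or 81.2% (69.9 to 89.6), against 32.1% (29.9 to 34.3) on the rest. The windows are the autosomal megabases densest in E16.5 replicate 1 peaks, and the part of this density in the share was not tested. The adult lists shared 15 window sites with each other, and 14 of these held an E16.5 peak. On the rest they shared 193 sites, of which 10 held no E16.5 peak, so this was not particular to the windows. The exception in the windows lay at chr11:97324645-97324978, with scores of 66.37 after depilation and 100.17 after imiquimod, 23.1 kb from the nearest E16.5 peak.

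Some sites held by all lists differed widely in rank between lists, and others differed little. On chromosome 10, the site at chr10:79229078-79229827 had the highest mean percentile of the 10. Its scores were 272.9 and 108.99 in the E16.5 replicates, 100.8 for depilation and 191.22 for imiquimod, which are percentiles 99.1, 87.5, 89.7 and 96.5. It was high in all lists, and its imiquimod peak had the most tags of any in the windows, 96, at a fold enrichment of 6.73.

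The site at chr10:79849360-79850526 scored 178.46, 74.44, 171.12 and 148.23 in the same order. Its depilation peak was the best of the windows in that list (percentile 98.2), while replicate 2 had 2 weaker peaks there, the better at percentile 66.1. The site at chr10:79144394-79145236 scored 172.1, 125.96, 97.38 and 75.36, and was lowest after imiquimod (percentile 57.5). At chr10:79100095-79100868 the scores were 129.59, 53.44, 84.32 and 120.86. Replicate 2 was low there, with a score close to the list's minimum of 50, and the other lists were between percentiles 81.7 and 84.6. The site at chr10:79197705-79198843 scored 133.03, 74.31, 64.26 and 52.72, and its imiquimod peak was near the threshold of its list (percentile 2.53, FDR 9.74%).

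In the second megabase of chromosome 10, chr10:80085292-80085971 ran the other way. Its scores were 76.46 and 86.77 in the E16.5 replicates (percentiles 58.3 and 77), 109.28 after depilation (92.2) and 187.03 after imiquimod (96.0). The site at chr10:80600430-80600976 scored 121.34, 64.37, 116.99 and 97.37, lowest in replicate 2 (percentile 50.9), and belongs to the short run of 3 sites given above. The best site of 3 lists there, at chr10:80297245-80298442, scored 110.74, 116.45 and 94.53 without an imiquimod peak. An imiquimod peak at chr10:80298612-80298896, with a score of 52.69, lay beside it without overlap, with centres 0.911 kb apart.

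On chromosome 11, chr11:97407692-97408651 was the site of all 4 lists. It scored 109.71 and 112.99 in the E16.5 replicates, 104.91 after depilation and 216.73 after imiquimod, percentiles 78.1, 89.0, 91.0 and 98.5. Its imiquimod fold enrichment of 10.39 was the highest in the windows. Its neighbour at chr11:97395703-97396698 scored 93, 150.4 and 209.91 in E16.5 replicates 1 and 2 and imiquimod, the last the better of 2 peaks, with no depilation peak. The site at chr11:96999914-97000671, on the edge of the window, scored 180.05, 118.86 and 98.07 in the same 3 lists. The best peak of E16.5 replicate 1 in the windows also lay here, at chr11:97361411-97362384, with a score of 286.6 (percentile 99.3). It was overlapped by replicate 2 and depilation peaks.

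On chromosome 8, chr8:73222606-73223789 scored 260.96 and 204.49 in the E16.5 replicates (percentiles 98.9 and 99.0), 58.86 after depilation (43.8) and 131.98 after imiquimod (86.9). The replicate 2 value is the best of that list in the windows. The embryonic replicates were nearly equal in rank here, with the adult lists below them. The widest site, at chr8:73904758-73906189 with 1432 bp, was embryonic too, with scores of 266.62 and 176.27 and no adult peak. In the second window, chr8:86222713-86223201 scored 92.38, 82.3, 90.99 and 96.18, within percentiles 69.7 to 85.7. The site at chr8:86707437-86708067 scored 148.03 in E16.5 replicate 1, 84.37 after depilation and 169.58 after imiquimod, with no replicate 2 peak. The site at chr8:86534997-86535615 scored 117.14, 74.03 and 87.21 in E16.5 replicates 1 and 2 and imiquimod.

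**Figure D5:**
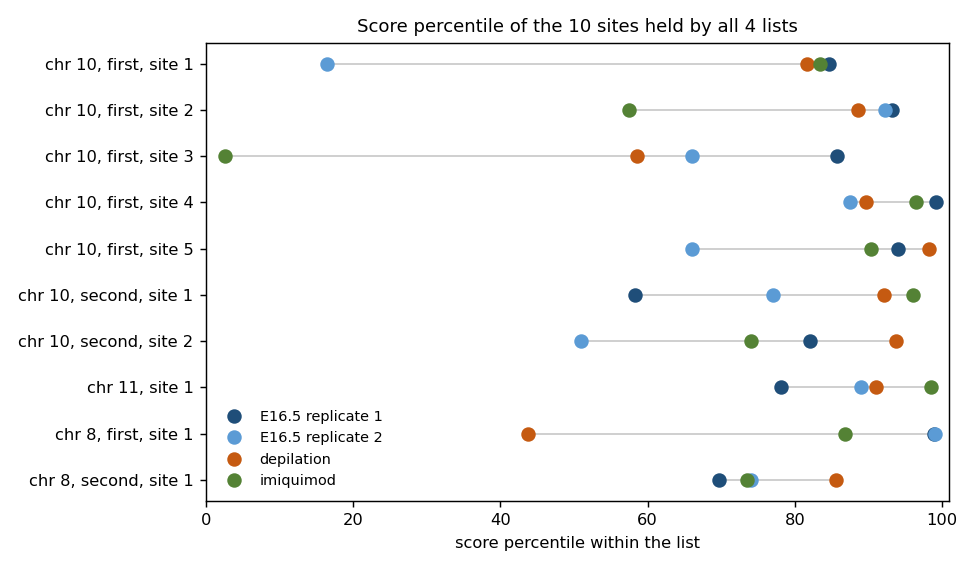
Score percentile within each list (horizontal axis, 0 to 100) at the 10 sites that all 4 lists hold, named by window and in order of position. Points are the lists and grey lines span them. The 4 lists lie close together at chr 8, second, site 1 (69.7 to 85.7), and far apart at chr 10, first, site 3, where imiquimod is at 2.53 and E16.5 replicate 1 at 85.7.

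Sites of a single list were weaker in general. The median percentile of sites held by E16.5 replicate 1 alone was 49.3 in the windows, against 85.2 for its peaks at the 10 sites of all lists. For E16.5 replicate 2 these values were 47.5 and 75.5. On the rest they were 35.1 and 87.7 for replicate 1 and 38.2 and 80.5 for replicate 2, so this order was not particular to the windows. The strongest single-list site was an E16.5 replicate 1 peak at chr10:79634341-79634814, with a score of 170.99 (percentile 93.1). An imiquimod peak at chr10:80473198-80473756 was nearly as high in its list, with a score of 163.24 (percentile 93.0) and 67 tags. It lay 26.5 kb from the nearest E16.5 peak. The best site of E16.5 replicate 2 alone, at chr10:79926973-79927080, scored 89.06, and that of depilation alone, at chr11:97525019-97525150, scored 69.78. The latter lay 0.595 kb from an E16.5 peak. The 13 adult sites without embryonic overlap lay a median of 15.5 kb from the nearest E16.5 peak, from 0.595 to 49.7 kb. The best imiquimod peak of the windows, at chr10:79958170-79958669 with a score of 235.92 (percentile 99.4), did lie on an E16.5 replicate 1 peak and on no other.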

How the data were processed

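The peak lists of the 4 Grhl3 libraries were used as deposited. The submitters' processing notes name the mm9 build, Bowtie 0.12.7 for one tool and bedtools 2.11.2 for another. The sources used here do not state how peaks were called, or whether against the inputs. For each peak of the embryonic and depilation lists the authors deposited its position and a score. The imiquimod list, per the file headers, also gives the authors' tag count, fold enrichment as a ratio and FDR in percent. Its score header is lost, and the column was read as the same kind of score.

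BED starts were raised by 1 bp. The overlap code was tested on simulated data and gave the same counts as bedtools 2.31.1 for all 12 ordered pairs of lists. Sites are chains of peaks, of any list, that overlap by at least 1 bp, with the best value of a list where it has several peaks. Values were computed with scipy 1.17.1, pandas 2.3.3 and numpy 2.4.6 under Python 3.11.15, and drawn with matplotlib 3.10.9.

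The windows, measures and named sites were chosen with earlier results of these data known. Named are, for each window, the 3 sites of highest mean percentile among those of all 4 lists, filled up from those of 3 lists. One window has no site of 3 lists and gave 1 site. Also named are the best site of each list alone, the widest site, the run with most sites, and all other sites of the 4 lists. The single adult site in both adult lists, the short run of 3, the best peak of each list and the imiquimod peak beside a named site were chosen after their values were seen. No gene or motif could be assigned, since no mm9 annotation or genome was used here. No p-value was computed: peaks of 1 library are not replicates.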

Additional observations from a re-analysis of the deposited data

How the results depend on the processing

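The comparison with the rest of the chromosomes was repeated under other settings, of which cutting the lists to equal length and the comparison with the next 3 densest megabases were added after seeing the data. For the difference in shared peaks, 26 of 38 alternatives stayed within the counting error of the value reported, among them all with a stricter overlap, centres within 500 bp, peaks of 200 bp, widened windows or all autosomes. With the better scoring 50% of each list, the difference in percentage points was -4.4 for E16.5 replicate 1 (6.89 with all peaks), 11 for replicate 2 (26.8) and 40.4 for imiquimod (55.8). With each list cut to its best 4820 peaks it was -5.93, 5.94 and 44.4 in the same order, and 16.4 for depilation. Leaving out E16.5 replicate 1, it was 13.2 for replicate 2 and 42.1 for imiquimod. Without replicate 2 it was 2.07 for replicate 1 and 49.9 for imiquimod, and for depilation it was 15.9 without replicate 1 and 26.1 without replicate 2. Against the next 3 densest megabases it was -21.2 for E16.5 replicate 1, -4.9 for replicate 2, -3.94 for depilation (26.9 against the rest) and 9.09 for imiquimod.

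In the better scoring 50%, the difference in median percentile was -2.05 and -5.81 for the E16.5 replicates, 2.64 for depilation and 8.26 for imiquimod, a range of percentiles cut by construction. The difference in median width was -70 bp for E16.5 replicate 1, 44 bp for replicate 2 and 24 bp for imiquimod. Peaks of E16.5 replicates 1 and 2 were then 15.7 and 22.7 kb from the nearest, and those of imiquimod 53.8 kb (30.8 with all peaks), with fewer peaks by construction. In widened windows these distances were 10.4 kb for replicate 1 and 44.5 kb for imiquimod, and the difference in median percentile for depilation was 6.57 (15.7 as reported). With peaks of 200 bp, 6 sites were in all 4 lists. Without E16.5 replicate 1, 29.4% of window sites were held by 2 or more lists, and without replicate 2 28.2%, with a list fewer by construction. Where no construction is named, the cause was not tested. No paired analysis was possible because the adult conditions have 1 library each. Depth is unknown, and windows with 3 or 4 adult peaks give no usable share of their own.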

Other observations

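Sharing differed between lists in other peak-dense megabases. At chr2:77-78 Mb the imiquimod list held 54 peaks, the most of any autosomal megabase in that list, and none of them was overlapped by another list (0%, interval 0 to 6.60). The other lists held 3, 1 and 3 peaks there. At chr9:3-4 Mb the depilation list held 43 peaks, of which 18 were shared (41.9%, 27.0 to 57.9), and the imiquimod list held 12, of which 2 were. E16.5 replicate 1 held 1 peak there, and replicate 2 held 19, of which 18 were shared (94.7%), 17 of them with depilation. At chrY:2-3 Mb the E16.5 replicates held 29 and 54 peaks and depilation 10, of which 22, 45 and 10 were shared.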
